A study of Rattus norvegicus and Heterocephalus glaber with 6 samples.

Results

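Complement components, their receptors and their regulators were examined in liver RNA of naked mole rats, subterranean rodents that tolerate low oxygen, and of rats. Members were the rows of the deposited gene tables whose symbol equals, ignoring case, 1 of 39 listed complement symbols, and the rule itself uses no measured value. Of the 39 symbols, 35 had a row among the 22549 rows of each rat table, and 1, CFP, among the 734 rows of each naked mole rat table. C4a, Fcna, C5ar1 and Crry had no row under these symbols and are not among the members analysed; rows that RefSeq links to C4a and Crry by another name are noted below. All animals of both species were held in 8% oxygen for 8 hours, per the labels, and polyadenylated liver RNA was sequenced in 3 libraries per species. The labels give no strain, sex or age. Normoxia libraries were not used here, so the response to low oxygen itself was not examined. The labels do not tie each library to an animal of its own, so a p-value here covers the variation between libraries, part of which may be technical.

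Complement is a cascade of plasma proteases that is started by antibody (classical pathway), by sugars on microbes (lectin pathway) or by spontaneous turnover of C3 (alternative pathway). All routes meet at the cleavage of C3 and end in a membrane attack complex built from C5b and the terminal components. Hepatocytes make most of the plasma components, whereas the C1q chains and properdin are made mainly by macrophages and other myeloid cells. For the comparison below, 22 members with a rat row were placed in a hepatocyte-made list and 6 in a macrophage-made list from textbook knowledge. The other 7, which include membrane regulators and genes of broad or other source, formed the remaining list. Bulk RNA does not show which cell made a transcript, and fewer cells of a type cannot be told apart from less RNA per cell.

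Values are FPKM, in which fragment counts are divided by transcript length and library size, so levels of different genes are compared per length. Where 3 FPKM values of 1 gene are given together, they are those of rat 1, rat 2 and rat 3, in that order. The rat libraries summed to between 527133 and 531399 FPKM without albumin, and their absolute depth is unknown. Complement members made up 1.46%, 1.40% and 1.59% of these sums, with C3 counted at its listed 0. That 0 gives no level of C3, as described below. The liver origin of the rat libraries showed in 9 hepatocyte markers, led by transferrin (Tf) and transthyretin (Ttr), all of which exceeded a mean of 100 FPKM. Of the 35 members, 28 reached a mean of 10 FPKM and 17 a mean of 100 FPKM, and 6, C3 among them, stayed under 1 FPKM. Over all rat rows, 3909 of 22549 reached 10 FPKM and 664 reached 100 FPKM. The authors' confidence bounds were not used, since 69 of the 100 member values above 0 lay outside their own bounds.

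**Figure D1:**
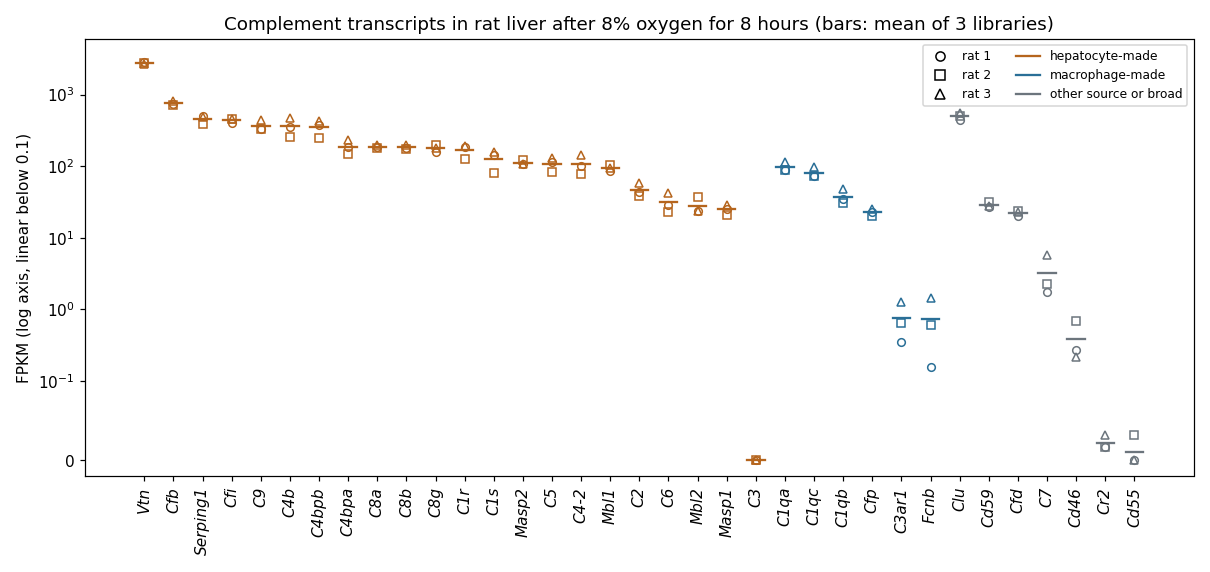
FPKM (log axis, linear below 0.1) of the 35 complement members in the 3 rat libraries, sorted by mean within the hepatocyte-made, macrophage-made and remaining lists; symbols are libraries and bars are means. Vtn stands highest at a mean of 2758 FPKM, C3 is listed at 0, and the 3 C1q chains and Cfp lie between 22.8 and 96.4 FPKM.

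The classical pathway starts with C1, in which C1q recognises antibody and the proteases C1r and C1s cleave the next components. The 3 C1q chains were C1qa at 88.4, 87.4 and 113 FPKM, C1qc at 72.6, 71.9 and 98.4 FPKM and C1qb at 34.3, 30.4 and 48.0 FPKM. Rat 3 was the highest for each chain, while rats 1 and 2 were nearly level. The genes lie side by side on chromosome 5, C1qb from 155647523 to 155653074, C1qc from 155656103 to 155659430 and C1qa from 155662332 to 155665180, as the deposited tables give them. The ratio of C1qa to C1qc was 1.22, 1.22 and 1.15, and that of C1qa to C1qb was 2.58, 2.88 and 2.36. The protein holds the chains in equal numbers, and the transcripts per length did not have equal levels in any of the 3 libraries.

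C1r stood at 187.5, 127.0 and 188.1 FPKM and C1s at 142.0, 79.9 and 158.0 FPKM, so rat 2 was the lowest for both. C1s in rat 1 and rat 3 was 1.78 and 1.98 times its level in rat 2, the widest gap among the hepatocyte-made members. C1-inhibitor (Serping1), the serpin that inactivates C1r and C1s, was more abundant than either at 503, 387 and 489 FPKM. Its ratio to C1r was 2.68, 3.05 and 2.60, and rat 2 was again the lowest library for the inhibitor itself.

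C4 and C2, the substrates of C1s, form the classical C3 convertase. C4b was at 347, 251 and 476 FPKM and C4-2 at 100.3, 78.8 and 141.0 FPKM, both with rat 3 highest and rat 2 lowest. The C4 genes are near-identical copies between which reads can be split, and the C4b row spans 39782 bp and overlaps the rows of Cyp21a1 and Tnxa. The level of either copy is therefore uncertain; their ratio was 3.46, 3.19 and 3.37. RefSeq (build GRCr8) gives C4-2 as another name of its C4b and C4b as another name of its C4a, so the copy behind each row cannot be named from the symbol. The 250 bases upstream of C4a and C4b in RefSeq were identical in 88.4% of 259 aligned columns. C2 was far lower, at 43.4, 38.5 and 58.5 FPKM.

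Promoters were examined because the C1q chains kept close ratios between libraries and several hepatocyte-made members shared a low value in rat 2. The 250 bases upstream of the RefSeq start (build GRCr8), 5′ to 3′ on the gene's strand, are shown for both C1q chains that RefSeq's promoter table holds and for C1r and C4bpb. Capitals mark, on either strand, GGAAGT (the core that ETS factors such as the macrophage regulator PU.1 bind) in C1qa and C1qb, TTGCNNAA (C/EBP) in C1r and TTCNNNGAA (STAT) in C4bpb. These 4 were chosen after the matches were seen.
C1qa, chr5:154419934-154420183, minus strand: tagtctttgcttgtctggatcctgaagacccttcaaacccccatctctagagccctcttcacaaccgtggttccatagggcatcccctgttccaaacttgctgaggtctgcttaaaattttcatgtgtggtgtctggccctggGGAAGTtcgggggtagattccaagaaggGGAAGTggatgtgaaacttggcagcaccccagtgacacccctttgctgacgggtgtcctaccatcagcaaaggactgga
C1qb, chr5:154407828-154408077, minus strand: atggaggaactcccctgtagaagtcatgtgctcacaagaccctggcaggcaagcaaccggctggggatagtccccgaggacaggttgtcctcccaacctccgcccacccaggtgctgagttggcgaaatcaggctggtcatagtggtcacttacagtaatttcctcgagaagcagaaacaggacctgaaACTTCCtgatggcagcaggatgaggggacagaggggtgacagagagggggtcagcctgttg
C1r, chr4:159098763-159099012, plus strand: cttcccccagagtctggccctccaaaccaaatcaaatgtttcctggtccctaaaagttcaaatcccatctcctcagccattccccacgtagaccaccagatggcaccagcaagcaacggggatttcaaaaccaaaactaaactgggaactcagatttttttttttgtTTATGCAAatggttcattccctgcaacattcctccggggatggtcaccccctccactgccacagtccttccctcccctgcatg
C4bpb, chr13:44683782-44684031, minus strand: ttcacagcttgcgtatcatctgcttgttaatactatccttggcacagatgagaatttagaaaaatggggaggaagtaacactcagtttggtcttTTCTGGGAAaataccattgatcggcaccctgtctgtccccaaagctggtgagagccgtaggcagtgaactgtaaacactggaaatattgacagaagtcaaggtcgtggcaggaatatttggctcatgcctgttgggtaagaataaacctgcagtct

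The C1qa window holds GGAAGT starting 107 and 79 bases upstream of the start, and the C1qb window holds its reverse complement starting 61 bases upstream. Of the 39 symbols, 25 matched a RefSeq promoter. GGAAGT was found in 5 of them (C1qa, C1qb, C4bpb, Fcna and Fcnb), near the 19.2% of all 33469 RefSeq promoter windows. TTGCNNAA was found in 7 (C1r, C3, C4bpa, C6, C8a, C8b and Fcnb), against 9.22% of all. TTCNNNGAA was found in 4 (C1qa, C4bpb, C8a and Vtn), against 7.67% of all. Members with TTGCNNAA or TTCNNNGAA did not share a pattern over the rat libraries. Rat 1 was 1.24 to 1.52 times rat 2 for C1r, C4bpa, C6 and C4bpb, and 1.01 to 1.06 times for C8a, C8b and C1qa. Vtn was lowest in rat 3 and Fcnb in rat 1. Other motifs were searched on both strands too. GAGGAAG (PU.1) was found in 3 members (C4bpb, Fcna and Mbl1), none of them a C1q chain, against 10.2% of all. TGTTTAC (FOXA) was found in 1 member, against 3.21% of all. ACGTG (the core of hypoxia response elements) was found in 6 members, against 16.6% of all. An NF-kappaB motif matched 2 members and 4.36% of all windows. CAAAGTCCA (HNF4) matched 0 members and 0.338% of windows, an HNF1 motif 0 members and 0.00299%, and an interferon response motif 0 members and 3.41%. In C4bpb the GAGGAAG and GGAAGT matches overlap each other. A match is a description of these letters and not a binding site.

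The lectin pathway uses mannose-binding lectins and ficolins, which carry the proteases MASP1 and MASP2. Mbl1 was at 86.6, 103.0 and 94.7 FPKM, Mbl2 at 23.4, 36.8 and 23.7 FPKM and Masp2 at 107.5, 120.0 and 108.5 FPKM. For these 3 genes rat 2 was the highest library, the reverse of C1r and C1s. Mbl2 showed the widest gap of them, with rat 2 standing 1.57 times above its lowest library. Masp1 followed the other order, at 25.4, 20.9 and 28.5 FPKM, and the ratio of Masp2 to Masp1 was 4.24, 5.76 and 3.81. Ficolin B (Fcnb), a ficolin of myeloid cells, was low at 0.157, 0.603 and 1.44 FPKM. Neutrophil markers were low as well: of 7 with a row, S100a8 (0.807, 4.76 and 4.56 FPKM) and S100a9 (1.43, 2.98 and 5.49 FPKM) alone reached a mean of 1 FPKM, and Elane was listed at 0. Their summed level was 2.51, 8.63 and 11.4 FPKM, in the same order as Fcnb; its part in the Fcnb level was not tested.

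The alternative pathway runs on C3, factor B, the protease factor D and properdin, which stabilises the convertase. With C3 left aside, since its level is not known, factor B (Cfb) was the second most abundant member at 738, 723 and 806 FPKM. It ranked 93 of all rat rows by mean. Its libraries differed by at most 1.11-fold. C2, the classical counterpart of factor B and its neighbour on chromosome 20 at a distance of 214 bp between the rows, was 17.0, 18.8 and 13.8 times lower than Cfb. Factor D (Cfd), known mainly from adipocytes, stood at 20.2, 23.9 and 22.7 FPKM. The adipocyte markers Adipoq and Lep were listed at 0 in each library. Fabp4 was at 7.38, 2.80 and 1.13 FPKM and Cidec at 62.4, 73.1 and 62.2 FPKM. The summed marker level of 69.8, 75.9 and 63.4 FPKM thus mostly gives the level of Cidec. The part of adipocytes in the Cfd level was not tested. Properdin (Cfp) was at 22.6, 20.3 and 25.5 FPKM.

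C3, the central component, was listed at 0 in the 3 rats. Its row lies on unplaced sequence, and of the 831 rat rows placed there 0 had a value above 0, against 73.0% of rows on assembled chromosomes. RefSeq places C3 on chromosome 9. The value therefore says how the row is listed and gives no level of C3 in these livers.

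The terminal components C5 to C9 assemble the membrane attack complex. The 3 chains of C8 had nearly equal levels per length: C8a was at 183, 181 and 194 FPKM, C8b at 181, 171 and 195 FPKM and C8g at 156, 195 and 181 FPKM. The ratio of C8a to C8b was 1.01, 1.06 and 0.998. C8a and C8b are neighbours on chromosome 5, whereas C8g lies on chromosome 3 in a row that overlaps Fbxw5, and C8g was highest in rat 2 where the other chains were highest in rat 3.

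C9, which forms the ring of the pore, was the most abundant terminal component at 335, 327 and 444 FPKM. C5, the precursor of the anaphylatoxin C5a, was at 112.8, 82.4 and 130.6 FPKM and C6 at 28.3, 22.8 and 42.0 FPKM, both lowest in rat 2. C7 was lowest of the terminal components at 1.76, 2.27 and 5.72 FPKM. Rat 3 stood 3.26 times above rat 1 for C7, the widest range among members with a mean of at least 1 FPKM. Of 6 stellate cell and fibroblast markers with a mean of at least 1 FPKM, 2 were highest in rat 3 too. These were Dcn (2.83, 2.93 and 6.11 FPKM) and Des (1.78, 1.81 and 3.27 FPKM), whereas the other 4 were highest in rat 1. The summed level of the 7 markers was 40.3, 28.7 and 39.7 FPKM. Their part in the C7 level was not tested.

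The soluble regulators were among the most abundant members. Vitronectin (Vtn), which binds the forming attack complex, was highest of the members with a known level, at 2808, 2800 and 2666 FPKM. It ranked 27 of all rat rows and held 31.6% to 38.0% of the complement sum, both with C3 at its listed 0. Clusterin (Clu), which acts at the same step, was at 447, 507 and 549 FPKM, on a row that overlaps Scara3. Factor I (Cfi), the protease that cuts C3b and C4b, was at 405, 451 and 458 FPKM. These 3 genes varied little between the libraries, by 1.05-fold, 1.23-fold and 1.13-fold.

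C4b-binding protein, a cofactor for factor I, has an alpha and a beta chain. C4bpb was at 371, 244 and 429 FPKM and C4bpa at 183, 147 and 230 FPKM, so both were lowest in rat 2. The beta chain transcript was 2.03, 1.66 and 1.87 times the alpha chain transcript per length, and the rows lie 9592 bp apart on chromosome 13.

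Among membrane regulators and receptors, Cd59, which blocks the assembly of the pore, was at 26.9, 31.8 and 27.3 FPKM. RefSeq gives Cd59 only as another name of Cd59b, and the row spans 1530 bp. Cd46 and Cd55, regulators of C3 convertases, were low: Cd46 at 0.270, 0.679 and 0.213 FPKM, and Cd55 listed at 0, 0.0315 and 0 FPKM. Crry had no row, but a row named Cr1l, for which RefSeq gives Crry as another name, was at 12.1, 13.2 and 12.3 FPKM. The receptor for the anaphylatoxin C3a (C3ar1) was at 0.350, 0.650 and 1.25 FPKM. Cr2, the complement receptor of B cells, was at 0.0162, 0.0170 and 0.0319 FPKM. B cell markers were low too, with a summed level of 0.925, 1.99 and 2.44 FPKM over 4 genes, of which Cd79a alone reached a mean of 1 FPKM.

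Hepatocyte-made and macrophage-made members differed in level. Of the 22 hepatocyte-made members with a row, 21 reached a mean of 10 FPKM and 16 a mean of 100 FPKM, with a median of 172 FPKM when C3 is counted at its listed 0 and 177 FPKM without C3. Of the 6 macrophage-made members, 4 reached 10 FPKM and 0 reached 100 FPKM, with a median of 30.2 FPKM. On log2(FPKM + 1) the medians differed by 2.52 with C3 counted and by 2.57 without it, and with C3 counted within single libraries by 2.55, 2.41 and 2.36 (SD 0.0987 over 3 libraries). The gap was 1.63 without the low members Fcnb and C3ar1. Over members with a mean of at least 1 FPKM, which also leaves out C3, it was 1.68, and against the C1q chains alone, which also leaves out Cfp, it was 1.08. The settings without C3 and without Fcnb and C3ar1 were chosen after seeing the data. Summed FPKM was 7068, 6588 and 7541 for the hepatocyte-made list and 218, 211 and 288 for the macrophage-made list. The members of a list are not replicates, so this is a description with no test.

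The most abundant C1q chain was not far below several hepatocyte-made members. C1qa, at 96.4 ± 14.6 FPKM (SD, n = 3), exceeded the means of Mbl1 (94.8 ± 8.19), C2 (46.8 ± 10.5), C6 (31.0 ± 9.91), Mbl2 (27.9 ± 7.64) and Masp1 (24.9 ± 3.85), though from Mbl1 it did not differ beyond the spread between libraries. It was also above Clec4f, a Kupffer cell lectin, by 1.45, 1.23 and 1.40 times.

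The macrophage-made members were compared with macrophage markers that are not complement members. Of 12 Kupffer cell and macrophage markers, 10 had a row and 9 reached a mean of 10 FPKM, led by Clec4f at 61.2, 71.2 and 81.1 FPKM and Cd5l at 26.0, 31.9 and 54.3 FPKM. Marco was listed at 0, also on unplaced sequence. Their summed level was 175, 186 and 245 FPKM. Rat 3 was the highest library for 7 of the 9 markers above 1 FPKM and for the 3 C1q chains and Cfp. The share over the 9995 rows that average 1 FPKM or more was 33.5%. The other 2 markers, Cd14 (19.7, 14.8 and 17.0 FPKM) and Aif1 (13.5, 11.2 and 12.1 FPKM), were highest in rat 1. The ratio of C1qa to Cd68 was 5.17, 4.96 and 4.58, and that of C1qa to Cd163 was 8.63, 8.44 and 7.32, so the higher C1qa value of rat 3 stood beside higher values of these markers. The part of macrophage number in the C1q levels was not tested.

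The 3 rat libraries differed in a common order for many members. Of the 29 members with a mean of at least 1 FPKM, 19 were lowest in rat 2, against 22.6% of the 9995 rat rows with such a mean. Of these, 18 were also highest in rat 3, against 14.0% of rows. The 19 comprised 15 of 21 hepatocyte-made members, 4 of 4 macrophage-made members and 0 of 4 others. For C1qa and C1qc, rat 1 was only 1.01 times rat 2. For the hepatocyte-made C8a, Cfb, C9 and C8b it was only 1.01 to 1.06 times rat 2. The lowest library of these members is therefore not distinct. This order was chosen for counting after its values were seen. The order known from earlier results, highest in rat 1 and lowest in rat 2, held for 1 member, Serping1, against 8.55% of rows. Scaling the rat libraries by their median ratio left 19 members lowest in rat 2 but moved the share of all rows to 33.5%.

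**Figure D2:**
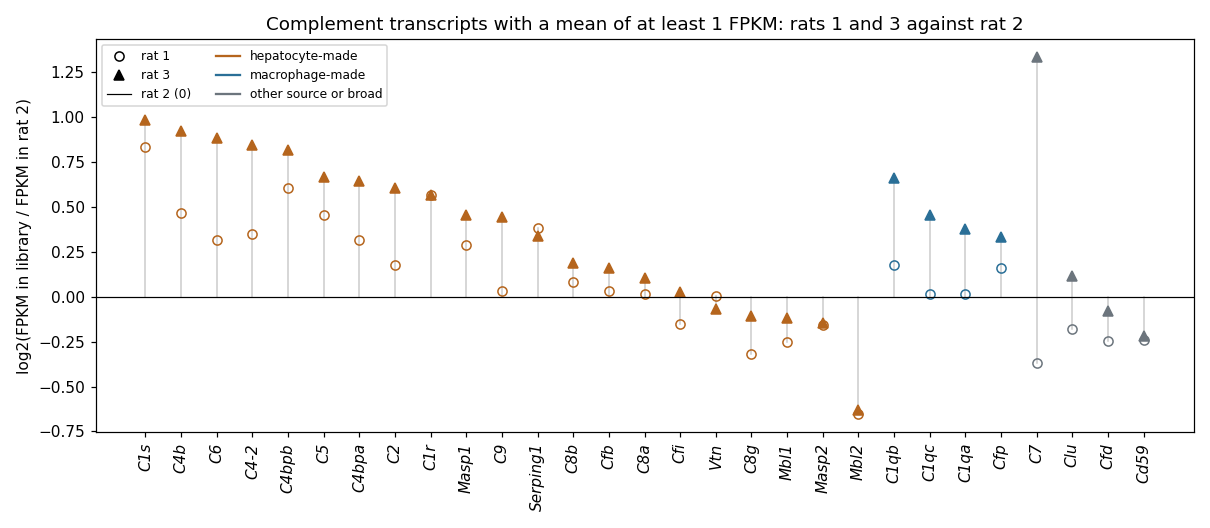
log2 ratio of FPKM in rat 1 (open circles) and rat 3 (filled triangles) to rat 2 (line at 0) for the 29 members with a mean of at least 1 FPKM, grouped by list. C1s, C4b, C6, C4-2 and C4bpb stand highest above rat 2 among the hepatocyte-made members, and Mbl2 lies below it in both libraries.

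Differences between the libraries were mostly moderate. Only C7 reached a 2-fold range between its highest and lowest library, 1 of 29 members, against 6.01% of rows; without rat 3 the count was 0. The median SD on log2(FPKM + 1) between libraries was 0.245 for 21 hepatocyte-made and 0.232 for 4 macrophage-made members, against 0.137 over the 9995 rows that average 1 FPKM or more. Without rat 2 the hepatocyte-made value was 0.114, and without rat 3 the macrophage-made value was 0.0586. The 2 lists thus differed in which library set their spread.

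Acute-phase genes of the liver had the same low library with a wider gap. Of 16 listed acute-phase genes, 15 were lowest in rat 2, against 22.6% of the 9995 rows that average 1 FPKM or more. At least a 2-fold range was seen in 11, against 6.01% of these rows. The order of A2m and Hamp, both among the 15, was known from earlier results. The fibrinogen chains were Fga at 6782, 1451 and 6984 FPKM, Fgb at 8594, 2256 and 8667 FPKM and Fgg at 7627, 1685 and 6929 FPKM. Haptoglobin (Hp), highest of the list, was at 13720, 8048 and 16803 FPKM. Over the list the median ratio to rat 2 was 2.24 for rat 1 and 2.49 for rat 3. Over hepatocyte-made complement members the same medians were 1.13 and 1.36, and over all rows 0.914 and 0.963. Of 9 hepatocyte markers, 2 were lowest in rat 2, near the 22.6% of all rows that average 1 FPKM or more. Of these 2, Tat was at 1023.3, 429.4 and 1220.5 FPKM and Apob at 149, 140 and 147 FPKM. Another 5 markers were highest in rat 2, for which the share of all rows was not counted. Whether the acute-phase state of the animals has a part in the complement levels was not tested.

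**Figure D3:**
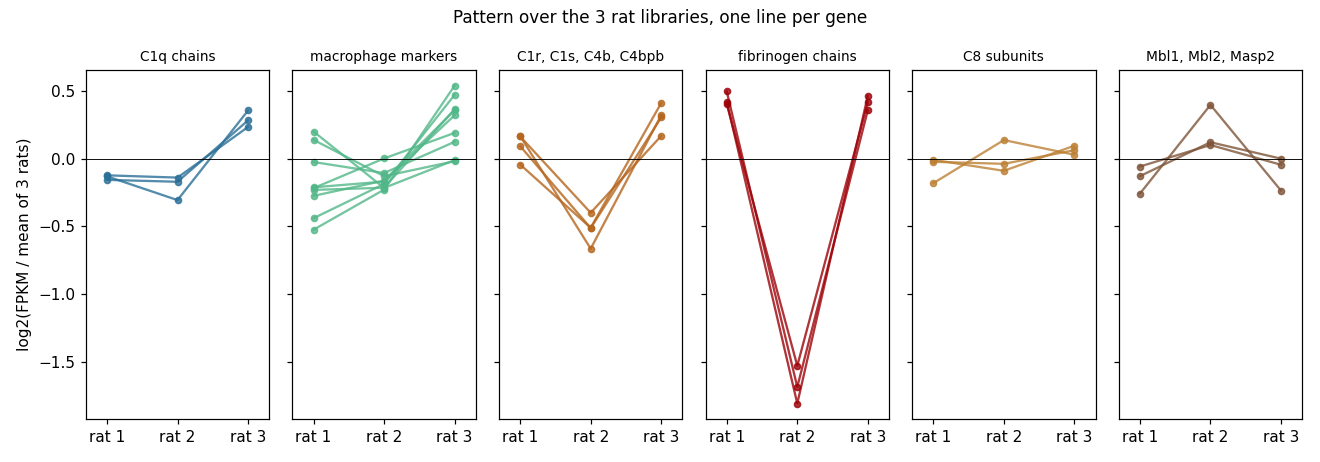
log2 of FPKM over the gene's own mean in the 3 rat libraries, with 1 line per gene, for 6 sets chosen after the values were seen. The C1q chains and most macrophage markers are highest in rat 3, C1r, C1s, C4b and C4bpb are lowest in rat 2, the fibrinogen chains are lowest in rat 2 by the widest gap, the C8 chains are nearly level, and Mbl1, Mbl2 and Masp2 are highest in rat 2.

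Other genes of the pathway outside the members gave 11 rat rows of 15 listed, of which 9 reached a mean of 1 FPKM and 6 a mean of 10 FPKM. The highest were Cpn2, a subunit of the carboxypeptidase that inactivates anaphylatoxins, at 77.7, 64.7 and 76.7 FPKM, and C1qbp at 72.7, 64.6 and 70.0 FPKM. Colec11, a collectin of the lectin pathway, was at 42.8, 36.2 and 34.7 FPKM. Vsig4, a complement receptor of Kupffer cells, was at 7.98, 9.50 and 15.0 FPKM, with rat 3 highest. Of the integrin chains of complement receptors, the shared beta chain Itgb2 was at 3.75, 4.22 and 6.34 FPKM, and the alpha chains Itgam and Itgax were lower, at 0.259, 0.383 and 0.672 FPKM and at 0.303, 0.341 and 0.291 FPKM. Of the 9 above 1 FPKM, 2 were lowest in rat 2, near the 22.6% of all rows with such a mean. A 2-fold range was seen in 0 of them, against 6.01% of rows.

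Properdin was the only member with a row under its symbol in both species. Its scaled FPKM was 5.24, 5.78 and 7.34 in naked mole rats 1 to 3, against 22.7, 17.4 and 23.8 in rats 1 to 3. The means were 6.12 ± 1.09 in naked mole rat and 21.3 ± 3.44 in rat (SD, n = 3 each), a log2 difference (naked mole rat minus rat) of -1.65 ± 0.16 (SE), or 3.13-fold higher in rat (limma adjusted p = 3.47e-05 over 288 shared symbols). The exact two-sided permutation test gave p = 0.1, the smallest that 3 against 3 allows. Such a call was common: 41.0% of the tested symbols were called higher in rat, CFP among them, and 32.6% higher in naked mole rat. The balance turned with the scaling. With an equal sum over the shared symbols calls toward naked mole rat numbered 169 and calls toward rat 108, of 358 symbols. With quantile normalization there were 111 toward naked mole rat and 101 toward rat, of 289 symbols. The median log2 difference over all tested symbols was -0.40, and CFP lay 1.24 below it. Scaling each library to an equal sum over the shared symbols moved that median to 0.77 and the CFP difference to -0.80, under the log2 limit of 1 for a call.

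**Figure D4:**
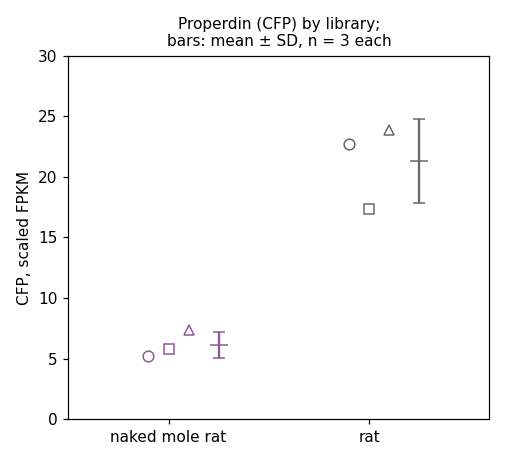
Scaled FPKM of properdin (CFP) in each library of naked mole rat and rat; symbols are replicates 1, 2 and 3 and bars are mean ± SD (n = 3 each). The naked mole rat libraries lie between 5.24 and 7.34 and the rat libraries between 17.4 and 23.8.

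The CFP rows differ in extent between the species. In naked mole rat the row runs on scaffold158488 from 111489 to 229063, a span of 117574 bp, and lies within the row of TIMP3, from 101115 to 425621. In rat it runs on chromosome X from 12584708 to 12590271, a span of 5563 bp, with no overlap. The rat Timp3 row lies on chromosome 7, from 19677143 to 19727072. The 2 rows thus share a scaffold in naked mole rat but lie on different chromosomes in rat. Whether the naked mole rat row measures properdin was not tested. As deposited, TIMP3 was at 7.46, 7.42 and 7.27 FPKM and CFP at 5.10, 5.14 and 7.01 FPKM in naked mole rats 1 to 3. The 2 values need not be separate. Among symbols whose naked mole rat row is more than 2 times longer than the rat row, 34.7% were called higher in rat. Some symbols abundant in 1 species were listed at 0 in the other. Scaled means in naked mole rat and rat were 0 and 1462 for LDHA, 0 and 449 for GLUD1, and 367 and 0 for GPX1. How well such rows measure the named gene was not tested. An effect of species cannot be told apart from the use of another genome and annotation, nor, for a gene made by macrophages, from the number of such cells, since no macrophage marker or C1q chain was analysed here in naked mole rat.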

How the data were processed

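The authors deposited 1 table of FPKM values per library, laid out like Cufflinks gene output, per the file headers. Per the submitters' processing notes the tools were Cufflinks 2.1.1, TopHat2 2.0.9, Picard 1.137 and Bowtie2 2.1.0. The sources used here do not name the genome builds, and row coordinates are printed as deposited. The absolute depth is unknown, so no interval for counting error is given. No member row had the status HIDATA. Symbols were matched ignoring case. The members, lists and tests were chosen with earlier results of these data known, and every member found is given.

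Rat levels are described without scaling. For the species, rows of a symbol were summed, giving 388 shared symbols. Scale factors were median ratios over symbols above 0 in every library. The 288 symbols that reached 1 scaled FPKM in 3 libraries entered limma 3.58.1 (R 4.3.3) with trended variance, on log2(scaled FPKM + 1). Adjustment was by Benjamini-Hochberg. A symbol was called where the adjusted p was under 0.05 and the log2 difference reached 1 either way. This scale understates folds of low genes. The step was tested on 20 simulated sets with 60 changed symbols each. A median of 100% of these was recovered, with a median of 0 false calls. In the data 212 symbols were called, so the sets do not test the scaling where that many symbols differ. Alternatives were scaling, pseudocount, filter, trend, row extent, a replicate block, list membership and leaving out each library.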

Additional observations from a re-analysis of the deposited data

How the results depend on the processing

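The CFP difference kept its direction under 16 alternatives and its call under 15 of them. Scaled to an equal sum over the shared symbols it was -0.80 (adjusted p = 0.00211, limma). It ran from -1.85 to -1.55 without single libraries, and symbols called from 209 to 216. With the replicate block, 212 symbols were called and CFP stayed at -1.65 (adjusted p = 6.83e-05). Same-numbered libraries did not deviate together (correlations of -0.0864 to -0.0355). With 3 libraries per species this cannot exclude a shared batch. With comparable spans alone, 27 of 47 symbols were called and CFP, on a long row, had no value. The hepatocyte-made minus macrophage-made level of 2.52 was 1.68 over members with a mean of at least 1 FPKM, 3.01 as a mean, 1.08 against the C1q chains alone, and 2.47 to 2.55 without single libraries. As settings chosen after seeing the data, it was 1.63 without Fcnb and C3ar1 and 2.57 without C3. The spread was 0.114 to 0.311 for hepatocyte-made and 0.0586 to 0.289 for macrophage-made members without single libraries. Members with a 2-fold range numbered 2 with the rat libraries scaled, 5 over all members listed and 0 to 1 without single libraries; members highest in rat 1 and lowest in rat 2 numbered 2 with scaling. The depth of the libraries is unknown, so what it limits was not tested.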
